A study of Mus musculus with 26 samples.

Results

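Small nucleolar RNAs (snoRNAs) were followed in mouse J1 embryonic stem cells as 73 genes of the 22180 that the array's probe table names by exactly 1 symbol, or 75 of its 23521 probe sets with 1 symbol. Every probe set whose only symbol is Snora or Snord followed by a number was kept, with no filter on signal. Of these, 28 carry box H/ACA (Snora) names and 47 carry box C/D (Snord) names. A further 43 snoRNA probe sets are listed with several symbols, among them those of Snord32a, Snord33 and Snord34 in Rpl13a, and were left out. Snora33 has 2 probe sets, 17239753 and 17239751, which are kept apart below. The 2 probe sets of Snora19 hold the same value on every array and are counted separately in all counts of members.

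Box C/D snoRNAs guide the methylation of ribose in ribosomal and spliceosomal RNA, and box H/ACA snoRNAs guide the conversion of uridine to pseudouridine. A few take part in cutting the ribosomal RNA precursor instead. In mammals most are released from introns of host genes, which encode proteins of ribosome production and translation or are noncoding RNAs such as the Snhg genes. The mature RNA is trimmed at both ends, is held in a ribonucleoprotein particle and has no poly(A) tail. The samples here were poly(A)-purified RNA per the labels' protocols, although the molecule field reads total RNA, so the signals describe what was left of these RNAs after purification, or other RNA that holds their sequence.

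The series holds 26 Affymetrix Mouse Gene 2.0 ST arrays in 13 groups of 2. In the time course (18 arrays), cells with Mettl14 knockdown, cells with Mettl3 knockdown and cells with a scramble control were sampled at 0 h, 4 h and 8 h. In the set whose titles carry YW codes (8 arrays, all at 0 h), Mettl14 knockdown cells and Mettl3 knockdown cells each have a scramble control of their own. Mettl3 and Mettl14 form the methyltransferase that places N6-methyladenosine on RNA. All cells grew in serum and leukaemia inhibitory factor on irradiated embryonic fibroblasts. The protocols speak of hairpins delivered by lentivirus and also of siRNA transfection, and name no agent for the 4 h and 8 h incubations. Replicate 2 of each YW-coded scramble is described as 4 h but titled 0 h, and was taken as 0 h. The titles number the arrays as biological replicates without placing them in separate experiments, so a p-value covers no more than the spread among these arrays, which may be technical.

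The Mettl14 probe set averaged 7.40 in Mettl14 knockdown cells and 9.09 in scramble cells at 0 h of the time course, in log2 signal. The probe set listed with both Mettl3 and Tox4 averaged 9.15 in Mettl3 knockdown cells and 11.04 in scramble cells. Among 6 stem cell markers, Nanog lay between 11.89 and 12.86, Zfp42 between 10.61 and 12.33 and Sox2 between 9.46 and 12.54 on the 26 arrays. Pou5f1 (7.75 to 9.40), Esrrb (7.34 to 8.815) and Dppa5a (5.18 to 6.14) were lower. The 8 fibroblast markers for the feeder cells ranged from Lum (3.70 to 4.86) upwards and included Col1a1 (7.28 to 8.36). At 8 h against 0 h, 2, 3 and 2 of them rose and none fell in Mettl14 knockdown, Mettl3 knockdown and scramble cells. Of all probe sets 23.7%, 23.8% and 27.7% rose and 12.7%, 12.5% and 14.3% fell in the same order. Counts over 8 genes do not set the markers apart from those shares. The part of feeder cells in the results was not tested. In such bulk samples, fewer cells of a type and less RNA per cell cannot be told apart. Over all 41345 probe sets on the array, replicate arrays correlated at 0.987 to 0.993.

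snoRNA signals were high for this array. The median over members of the mean signal on all arrays was 9.29, against 6.83 for all probe sets with 1 symbol, on the log2 scale. Of the 75 members, 61 (81.3%) lay above that median of all probe sets, and 22 were at or above their 90th percentile. The median was 9.43 for the H/ACA members and 8.93 for the C/D members. Probes differ in how strongly they bind, so these signals do not rank the RNAs by abundance.

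**Figure D1:**
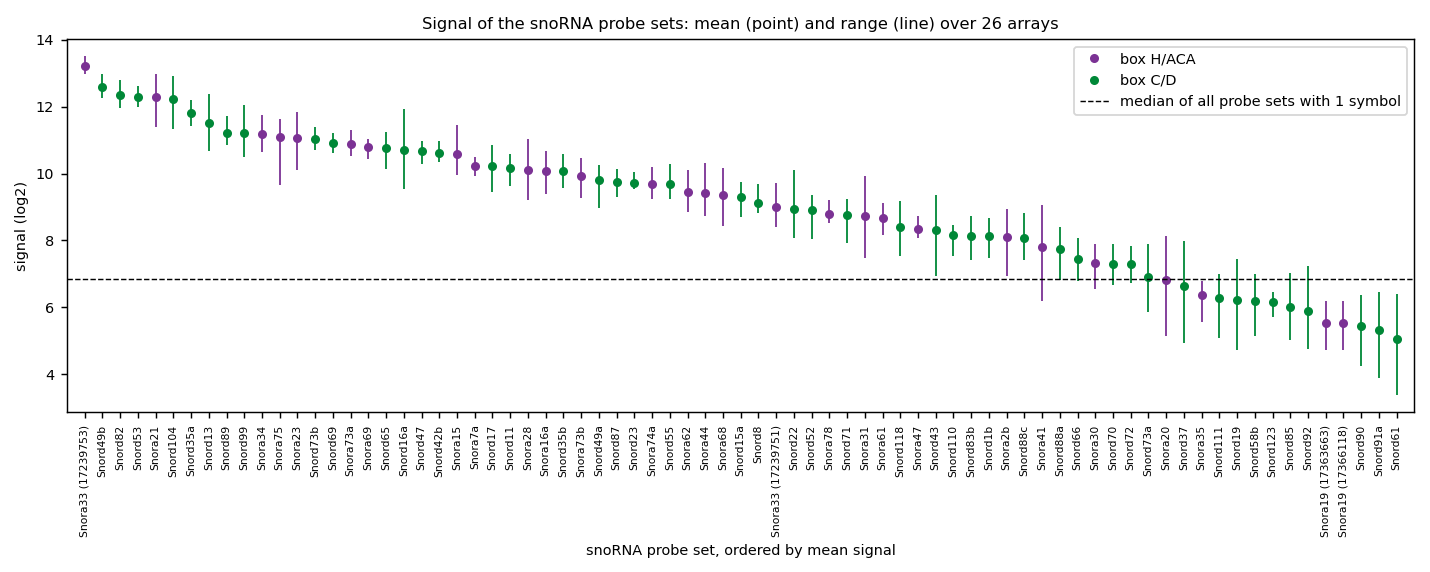
Mean log2 signal of each of the 75 snoRNA probe sets over the 26 arrays (points), with lines for the lowest and the highest array, ordered by the mean and coloured by class. The dashed line is the median of all probe sets with 1 symbol, at 6.83, and 61 members lie above it.

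The brightest member was Snora33 (probe set 17239753), in the gene of the ribosomal protein Rps12, with a mean log2 signal of 13.23. It was followed by Snord49b (12.60) in the noncoding gene 2410006H16Rik, Snord82 (12.34) in the nucleolin gene Ncl, and Snord53 (12.29) in Wdr43, a ribosome biogenesis factor. Snora21 (12.29) in Rpl23, Snord104 (12.24), Snord35a (11.83) in Rpl13a and Snord13 (11.52) came next. The 12 brightest were completed by Snord89 (11.20), Snord99 (11.20) in Snhg12, Snora34 (11.19) in Kansl2 and Snora75 (11.11), which lies in Ncl together with Snord82. At the low end were Snord61 (5.04), Snord91a (5.33), Snord90 (5.44), both Snora19 probe sets (5.52) and Snord92 (5.90). Snord92 lies in Wdr43, so this gene holds a member of the brightest group and a member of the dimmest. Among the snoRNAs that take part in processing the ribosomal RNA precursor, Snora73a and Snora73b (U17) had mean signals of 10.89 and 9.91, Snord22 (U22) of 8.93 and Snord118 (U8) of 8.41.

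Between 4 h and 0 h, snoRNAs moved mainly downwards, and did so in all 3 treatments. With limma and Benjamini-Hochberg adjustment over all 23521 probe sets, at a threshold of 0.05, 34 members fell and 4 rose in Mettl14 knockdown cells. The matching counts were 28 and 5 in Mettl3 knockdown cells, and 34 and 5 in scramble cells. Of all probe sets 27.8%, 26.8% and 28.5% were called in the same order. In detail, 8.41% fell and 19.4% rose in Mettl14 knockdown cells, 8.41% fell and 18.3% rose in Mettl3 knockdown cells, and 8.79% fell and 19.7% rose in scramble cells. In scramble cells 45.3% of the members therefore fell, and in all 3 treatments the balance of calls over all probe sets was the other way. The median log2 change over members was -0.38 with Mettl14 knockdown, -0.30 with Mettl3 knockdown and -0.44 in scramble cells, whereas the medians over all probe sets were 0.09, 0.07 and 0.12 in the same order. Of the members called, 17, 13 and 20 were at least 2-fold lower in that order, against 1.67%, 1.56% and 1.88% of all probe sets.

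The 3 changes come from separate arrays, and the same members led them. Across the 75 members the change at 4 h in scramble cells correlated at 0.95 with that in Mettl14 knockdown cells and at 0.91 with that in Mettl3 knockdown cells (Pearson r over probe sets, which are not independent replicates). In all 3 treatments 28 members (37.3%) fell, against 5.82% of all probe sets, and 3 (4%) rose, against 11.8%. The 3 were Snora15, Snora33 and Snord35b, and no member was called in opposite directions. A remainder of 31 passed the threshold in none.

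**Figure D2:**
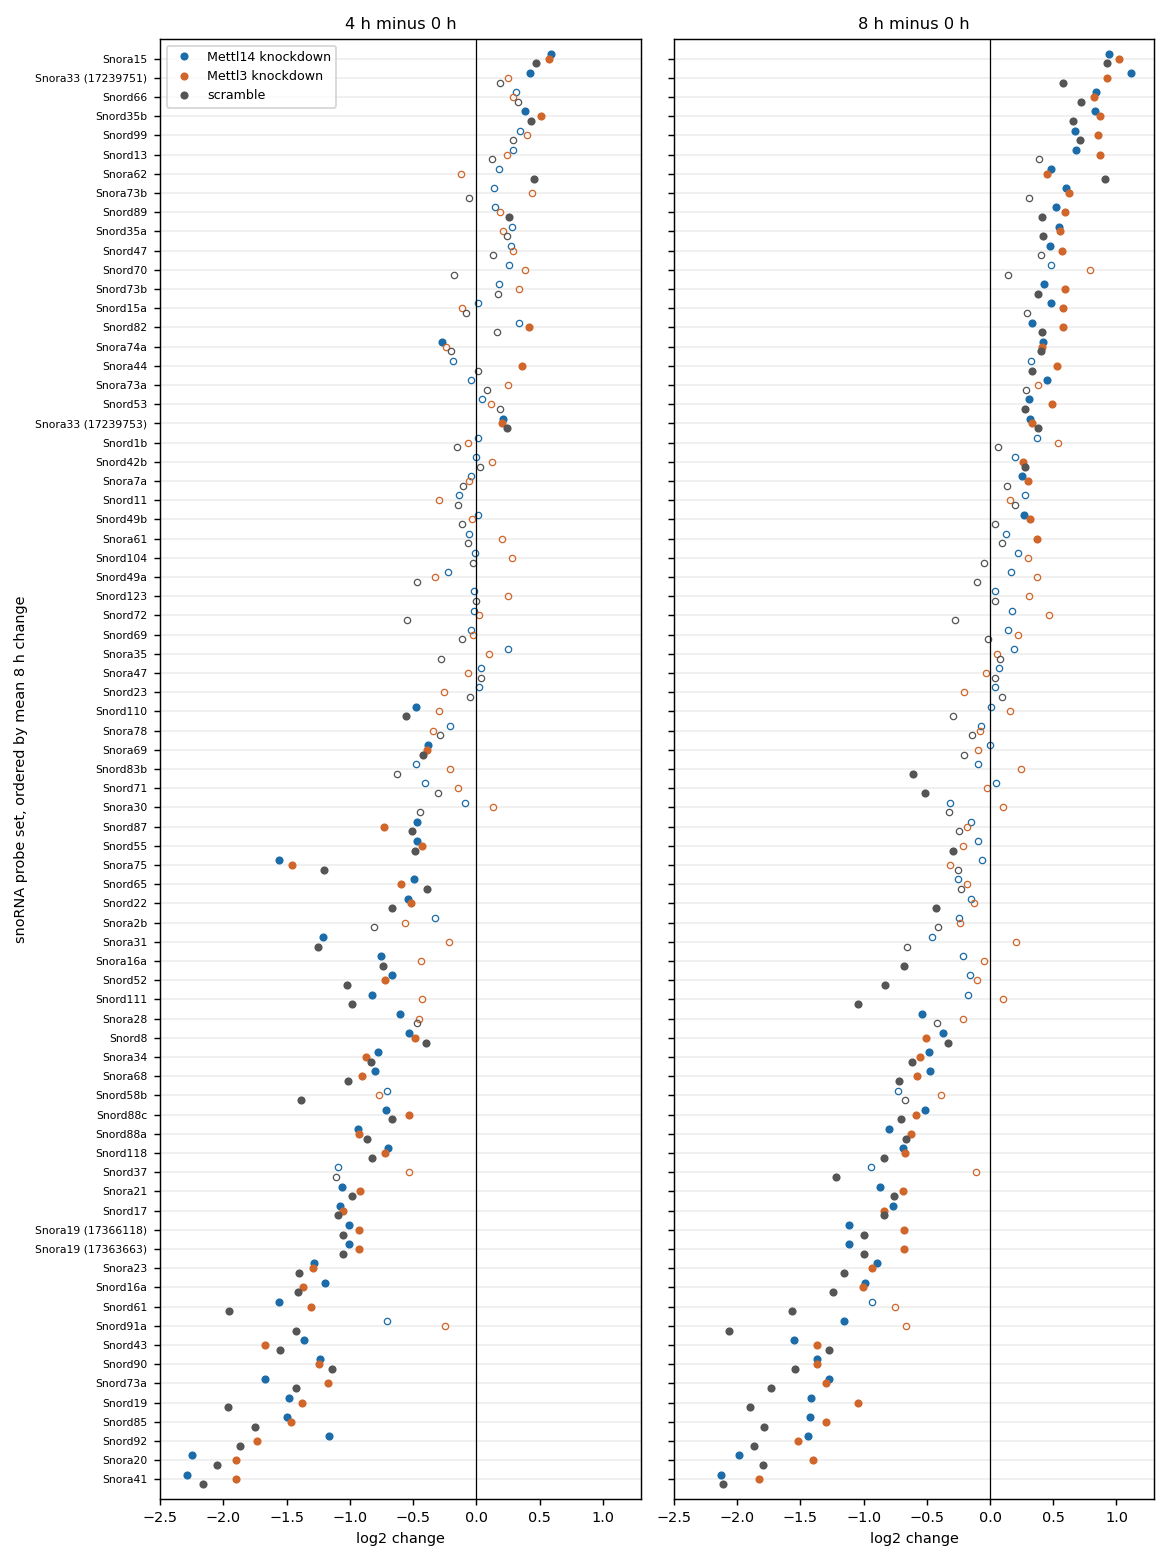
Log2 change of each snoRNA probe set at 4 h (left) and 8 h (right) against 0 h in the Mettl14 knockdown, Mettl3 knockdown and scramble cells of the time course. Filled points passed the limma threshold (adjusted p under 0.05) and open points did not. Snora41, in the lowest row, changed by -2.29, -1.90 and -2.16 at 4 h, and Snora15, in the highest, rose in each panel and treatment.

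Snora41, in the gene of the elongation factor subunit Eef1b2, was among the steepest falls. In Mettl14 knockdown cells its log2 signal was 8.67 and 8.77 at 0 h, 6.44 and 6.43 at 4 h, and 6.18 and 6.999 at 8 h. In Mettl3 knockdown cells it was 8.69 and 8.77 at 0 h, 6.96 and 6.70 at 4 h, and 7.07 and 6.73 at 8 h. In scramble cells it was 8.84 and 8.84 at 0 h, 6.72 and 6.63 at 4 h, and 6.62 and 6.83 at 8 h. Every later array lay below every 0 h array, by more than the spread within any pair. The change at 4 h was -2.29 ± 0.21 with Mettl14 knockdown, -1.90 ± 0.21 with Mettl3 knockdown and -2.16 ± 0.21 in scramble cells (standard errors, limma adjusted p of 2.02e-05, 8.17e-05 and 2.99e-05).

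Snora20, in the gene of the chaperonin subunit Tcp1, had log2 signals of 7.79 and 7.78 at 0 h, 5.97 and 5.49 at 4 h, and 5.69 and 6.28 at 8 h in scramble cells. Its change at 4 h was -2.25 with Mettl14 knockdown, -1.90 with Mettl3 knockdown and -2.05 in scramble cells. The 0 h and later arrays did not overlap. Snord85 had 7.04 and 6.96 at 0 h, 5.25 and 5.24 at 4 h, and 5.21 and 5.22 at 8 h in scramble cells. Its fall of -1.75 ± 0.11 at 4 h there had an adjusted p of 1.57e-06 (limma), and with the knockdowns of Mettl14 and Mettl3 the changes were -1.50 and -1.47. Other large falls in scramble cells were those of Snord19 (-1.96 ± 0.27), Snord61 (-1.96 ± 0.44) and Snord92 (-1.87 ± 0.18). The Snord61 arrays were the least alike, at 4.35 and 3.38 at 4 h against 6.21 and 5.43 at 0 h, and its call in scramble cells was lost without replicate 1 at 0 h or without replicate 2 at 4 h.

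Bright members fell as well. Snord16a, in the ribosomal protein gene Rpl4, had log2 signals of 9.98 and 9.97 at 4 h against 11.46 and 11.31 at 0 h in scramble cells, a change of -1.41 ± 0.09 (limma adjusted p = 1.07e-06). Its changes were -1.20 with Mettl14 knockdown and -1.37 with Mettl3 knockdown. Snora21 had 11.71 and 11.79 at 4 h against 12.79 and 12.68 at 0 h in scramble cells. Its changes of -1.06, -0.92 and -0.98 with Mettl14 knockdown, Mettl3 knockdown and scramble all passed the test. Snord118, the U8 RNA needed to mature the large-subunit ribosomal RNA in frogs and humans, changed by -0.70, -0.72 and -0.83 in the same order and fell in all 3.

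The rises at 4 h were smaller. Snora15, in the chaperonin subunit gene Cct6a, had log2 signals of 10.86 and 10.93 at 4 h against 10.43 and 10.42 at 0 h in scramble cells. It rose by 0.59 with Mettl14 knockdown, 0.57 with Mettl3 knockdown and 0.47 in scramble cells, each with a standard error of 0.12. Snord35b rose by 0.39, 0.52 and 0.44 in that order. Snora33 (probe set 17239753) rose by 0.21, 0.20 and 0.25 in that order, with a standard error of 0.06. Snora62 in Rpsa, the laminin receptor ribosomal protein gene, rose by 0.45 in scramble cells, and its change was -0.12 in Mettl3 knockdown cells, where it did not pass the test.

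These directions depend on how the arrays are centred. When the arrays were shifted to an equal median of 26 genes whose transcripts are known to be long-lived (glycolytic, mitochondrial and cytoskeletal genes), the median change of all probe sets at 8 h in scramble cells became -0.23 in place of 0.16. Members then numbered 1 risen and 37 fallen at 4 h with Mettl14 knockdown, 2 and 33 with Mettl3 knockdown, and 0 and 45 in scramble cells. More members thus counted as fallen under that centring, and fewer as risen. The shift applies to every probe set, and shares of all probe sets called at this setting are not given here. Counts under this centring, here and below, therefore do not set snoRNAs apart from other probe sets. The 4 h rises of Snora62, Snord35b and Snora33 in scramble cells no longer passed the test, nor did that of Snora15 there, whereas those of Snora15 in both knockdowns and of Snord35b with Mettl3 knockdown did. Rises are therefore given below relative to the deposited scale.

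Distributions over all 1-symbol probe sets also moved with time. The 95th percentile of log2 signal was 11.20 to 11.24 on the 0 h arrays, 11.29 to 11.34 at 4 h and 11.31 to 11.35 at 8 h of the time course. The median over members was 9.07 to 9.26 at 0 h, 8.89 to 9.03 at 4 h and 9.19 to 9.51 at 8 h. It was lowest at 4 h, and no 4 h array reached a 0 h array. After the arrays were normalized again to equal quantiles, the counts of members called at 4 h and at 8 h against 0 h stayed close to those given.

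From 4 h to 8 h members moved only upwards among those called. At 8 h against 4 h, 11 members rose with Mettl14 knockdown, 11 with Mettl3 knockdown and 4 in scramble cells, and 0 fell in each (limma). At an unadjusted p under 0.05, 34, 30 and 23 members passed in this order, without a matching share of all probe sets here. At the adjusted threshold 3.31%, 3.14% and 7.21% of all probe sets were called in the same order. Those that rose were 0.34%, 0.378% and 0.88%, and those that fell 2.97%, 2.76% and 6.33%. The median change over members was 0.26, 0.33 and 0.21. Under the centring on long-lived genes 3, 5 and 2 rose and 0, 0 and 1 fell. The counts rest on few arrays. Left out singly, 10 of the 18 arrays took the Mettl14 count down to 7 or fewer (replicate 1 of Mettl14 knockdown at 4 h to 2, replicate 1 at 8 h to 3), 5 took the Mettl3 count down to 7 or fewer (replicate 2 of Mettl3 knockdown at 4 h to 2), and 7 took the scramble count to 2.

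Snora75 gave the largest of these rises. Its log2 signal in Mettl14 knockdown cells was 11.46 and 11.44 at 0 h, 9.67 and 10.10 at 4 h, and 11.21 and 11.55 at 8 h. In Mettl3 knockdown cells it was 11.51 and 11.64 at 0 h, 10.16 and 10.06 at 4 h, and 11.13 and 11.40 at 8 h. In scramble cells it was 11.43 and 11.51 at 0 h, 10.17 and 10.37 at 4 h, and 11.13 and 11.31 at 8 h. The 4 h arrays stood apart from all others, and the 8 h arrays returned close to those at 0 h. Its fall at 4 h was -1.56, -1.46 and -1.20, and its rise at 8 h against 4 h was 1.498 ± 0.15, 1.15 ± 0.15 and 0.95 ± 0.15, for Mettl14 knockdown, Mettl3 knockdown and scramble (limma adjusted p of 0.000417, 0.00178 and 0.00264 for the rises). The 8 h change against 0 h was -0.07, -0.31 and -0.25 and did not pass. Snora74a in the noncoding gene Snhg4 rose at 8 h against 4 h by 0.69, 0.65 and 0.60 in that order. The dimmer Snora33 probe set, 17239751 (mean log2 signal 8.99), rose by 0.69, 0.68 and 0.39. The brighter Snora33 probe set, 17239753, changed by 0.11, 0.13 and 0.13 and did not pass in any treatment.

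**Figure D3:**
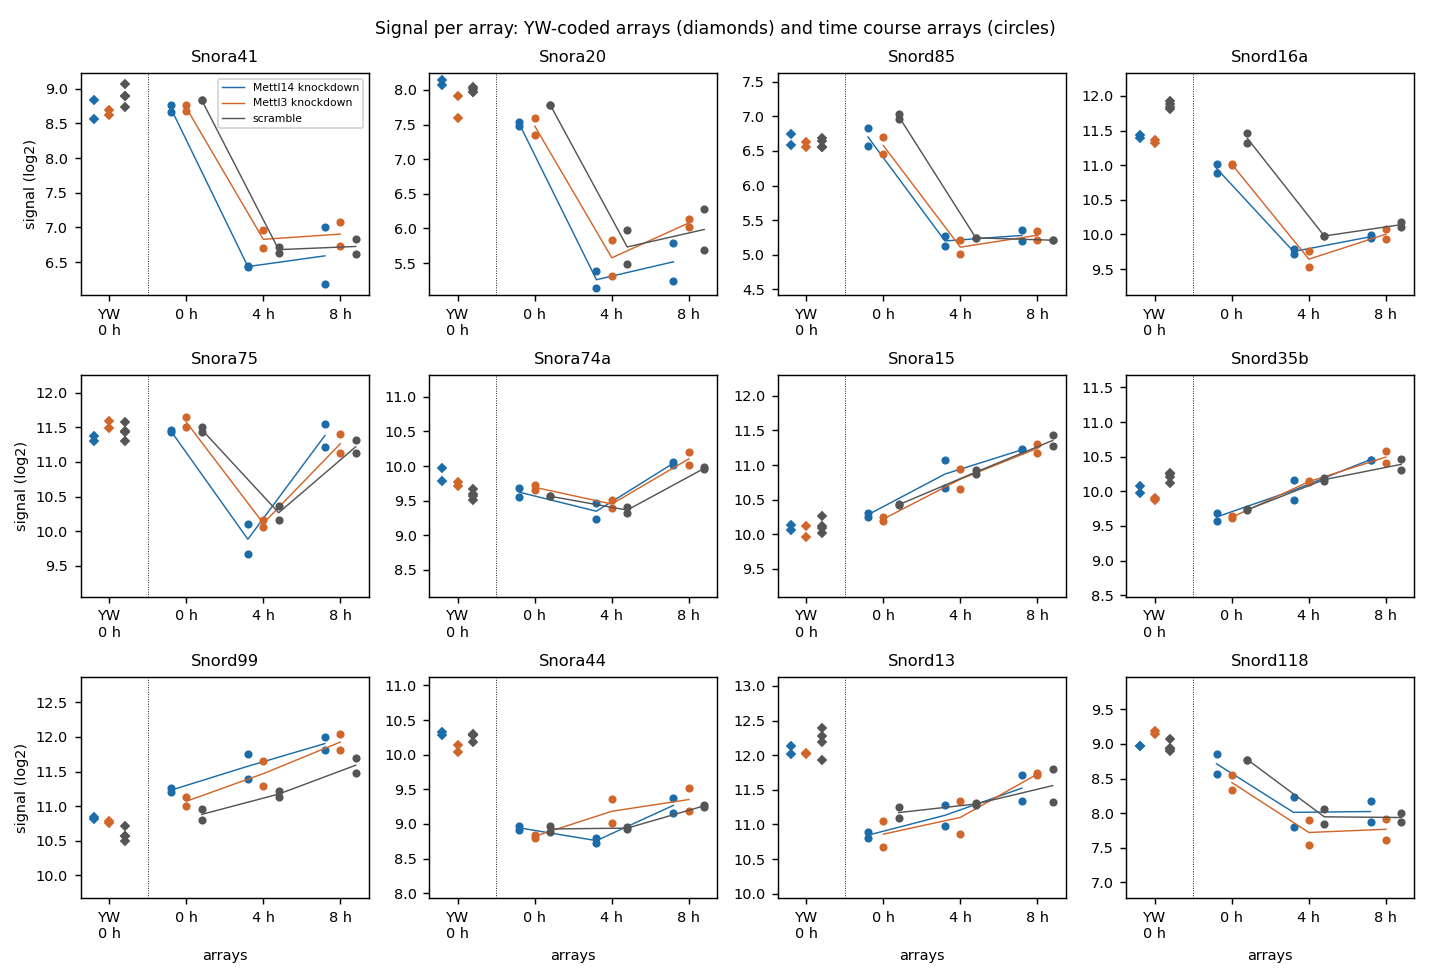
Log2 signal of 12 snoRNAs on each array: YW-coded arrays at 0 h (diamonds, left of the dotted line) and time course arrays at 0, 4 and 8 h (circles, joined at their means). Snora41, Snora20, Snord85 and Snord16a stay low at 8 h, Snora75 dips at 4 h, Snora15 and Snord35b climb, and Snora44 and Snord13 are higher on the YW-coded arrays than on the 0 h arrays of the time course.

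Set against 0 h, the 8 h arrays showed members in both directions. In Mettl14 knockdown cells 20 rose and 22 fell, in Mettl3 knockdown cells 22 rose and 20 fell, and in scramble cells 15 rose and 30 fell. Of all probe sets, 36.4%, 36.3% and 42% were called in the same order. These split into 23.7% risen and 12.7% fallen, 23.8% and 12.5%, and 27.7% and 14.3%. Members that rose made up 26.7%, 29.3% and 20% of the 75 in the same order. The knockdown shares were near those of all probe sets and the scramble share was lower, a contrast that was not tested. Members that fell made up 29.3%, 26.7% and 40%. After centring on the long-lived genes the counts of risen and fallen members became 5 and 29, 6 and 32, and 2 and 47. The same centring shifted all probe sets, whose shares called at this setting are not given here. At that setting Snora15 still rose in all 3 treatments, by 0.68, 0.71 and 0.54, in the same order.

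In all 3 treatments 20 members (26.7%) fell at 8 h and 13 (17.3%) rose, against 9.39% and 15.9% of all probe sets, with 21 called in none. The 20 hold Snora41, Snora20, Snord19, Snord85, Snord92, Snord73a and Snord43, whose changes at 8 h in scramble cells were -2.11, -1.80, -1.90, -1.79, -1.86, -1.73 and -1.27 in that order. Snord91a changed by -2.06 ± 0.33 there, but did not pass with Mettl3 knockdown. Among the 13, Snora15 had 11.27 and 11.44 at 8 h against 10.43 and 10.42 at 0 h in scramble cells, a rise of 0.93 ± 0.12 (limma adjusted p = 0.000109). Its rise was 0.94 with Mettl14 knockdown and 1.02 with Mettl3 knockdown. Snord99 rose by 0.67, 0.85 and 0.71, Snord35b by 0.83, 0.87 and 0.66, and Snord66 by 0.84, 0.82 and 0.72, for Mettl14 knockdown, Mettl3 knockdown and scramble.

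The snoRNAs of precursor processing were called in both directions. Snord118 (U8) stayed lower at 8 h, by -0.69, -0.67 and -0.84 for Mettl14 knockdown, Mettl3 knockdown and scramble, and passed in all 3. Snord13 (U13), which in humans guides a cytidine acetylation of ribosomal RNA, rose by 0.68 and 0.87 in the knockdowns, and its change of 0.39 in scramble cells had an adjusted p of 0.138 (limma). Snora73b rose by 0.60 and 0.62 in the knockdowns, and its 0.31 in scramble cells did not pass. Snord22, in Snhg1, changed by -0.15, -0.13 and -0.43 and fell in scramble cells.

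The size of the fall went with the brightness of the probe set. Among the 15 members with a mean log2 signal under 7, 12 fell and none rose at 8 h in scramble cells, with a median change of -1.55. Of the 12363 probe sets under 7 in all, 4.76% fell there and the median change was 0.18. Among the 32 members between 7 and 10, 12 fell and 5 rose (median -0.28), and among the 28 members over 10, 6 fell and 10 rose (median 0.17). Shares of all probe sets in these brighter bins are not given here, so the trend is described for members only. In the knockdowns the members under 7 counted 9 fallen with Mettl14 and 8 with Mettl3, again with none risen. Across the 75 members the 8 h change correlated with the mean signal at 0.53, 0.45 and 0.59 (Mettl14 knockdown, Mettl3 knockdown, scramble). The mean includes the later arrays, so a member that fell also has a lower mean.

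The classes had similar medians. In scramble cells 9 of 28 H/ACA members fell and 6 rose at 8 h, against 21 fallen and 9 risen of 47 C/D members, with median changes of -0.23 and -0.28. The 2 host types had unlike counts of falls. Among the 54 members within protein-coding genes, 21, 19 and 26 fell at 8 h with Mettl14 knockdown, Mettl3 knockdown and scramble. Among the 18 within noncoding genes, 0, 0 and 3 fell and 6, 7 and 3 rose. Of all probe sets 12.7%, 12.5% and 14.3% fell and 23.7%, 23.8% and 27.7% rose in the same order. Rises among the members within protein-coding genes are not given here, so the 2 host types are compared on falls only. The difference in falls was not tested, and 14 of the 15 members under 7 lie in protein-coding genes.

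**Figure D4:**
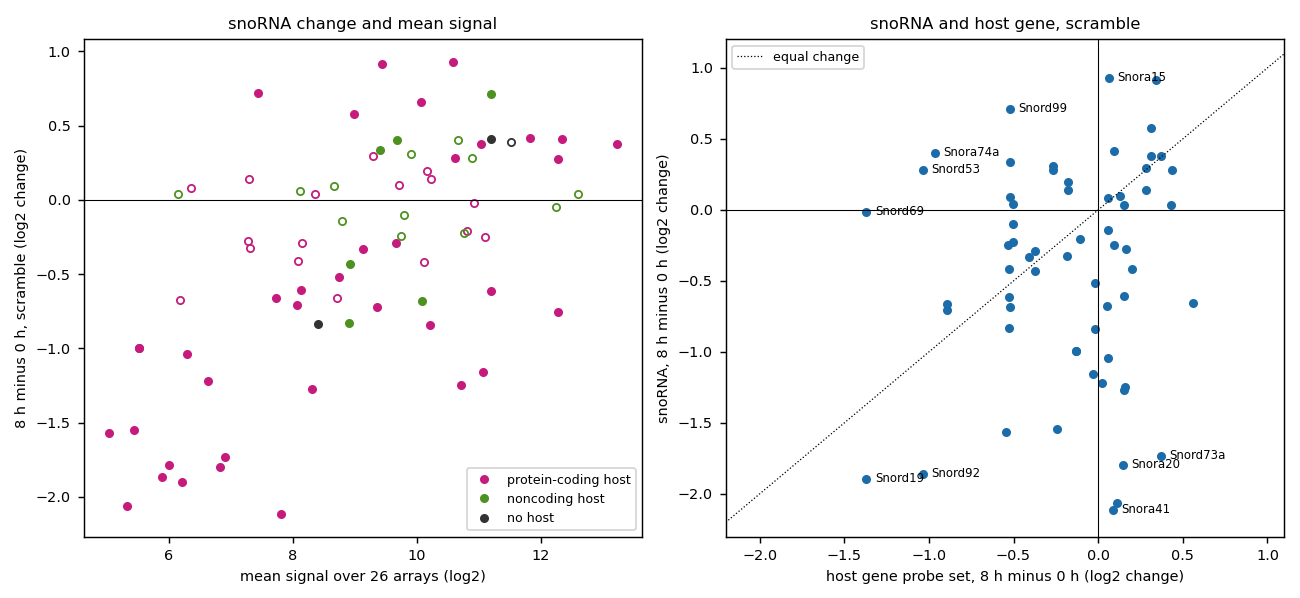
Left, 8 h change in scramble cells against mean log2 signal for the 75 snoRNA probe sets, coloured by host type, with filled points for those past the limma threshold. Right, the same change for the 62 snoRNA probe sets whose host gene has a probe set, against the change of the host, with the dotted line for equal change. Points are spread above and below that line, with Snora41 and Snora20 low beside hosts near 0.

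At 8 h against 0 h, changes of snoRNAs and of their host transcripts correlated weakly. For 62 members the host gene has a probe set of its own (46 hosts). Across those 62 the 8 h change of the member correlated with that of the host at 0.11, 0.10 and 0.10, for Mettl14 knockdown, Mettl3 knockdown and scramble. Of the 36 called in scramble cells, 16 had a host called in the same direction, 7 a host called in the opposite direction and 13 a host that was not called. Snora41 fell by -2.11 in scramble cells while the change of Eef1b2 was 0.09 ± 0.06 (adjusted p = 0.301, limma). Snora20 fell by -1.80 while Tcp1 rose by 0.14. In the other direction, on the deposited scale, Snord53 rose by 0.28 while Wdr43 fell by -1.03. Snora74a rose by 0.40 while Snhg4 fell by -0.96, and Snord99 rose by 0.71 while Snhg12 fell by -0.52. Wdr43 and Snhg4 fell at 8 h in both knockdowns too. The correlation of member and host differed by comparison. Between the YW-coded and 0 h time course arrays it was 0.30, 0.21 and 0.43 (Mettl14 knockdown, Mettl3 knockdown, scramble). For knockdown against scramble at 0 h it was 0.35 and 0.39 in the time course and 0.22 and 0.20 on the YW-coded arrays (Mettl14, Mettl3). Some host probe sets, such as that of Rps3a1, can bind the RNA of near-identical copies.

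snoRNAs of the same host gene also parted. Of the host genes, 11 hold several snoRNAs each, 25 members in all. In scramble cells 3 of the 11 hosts had a member that rose and a member that fell at 8 h. These were Rps3a1, Wdr43 and Snhg12. In Rps3a1, Snord73b rose by 0.38 and Snord73a fell by -1.73. In Wdr43, Snord53 rose by 0.28 and Snord92 fell by -1.86. In Snhg12, Snord99 rose by 0.71, Snora44 by 0.33 and Snora16a fell by -0.68. These rises hold on the deposited scale. Centred on the long-lived genes, the rise of Snord99 in scramble cells no longer passed the test. Snord73b, Snord53 and Snora44 rose by less, and the same shift applies to them. The Rps3a1 and Wdr43 pairs parted in both knockdowns as well, the only hosts to do so at 8 h. In each pair the member that fell is the dimmer one. Snord69 and Snord19 share the nucleostemin gene Gnl3, and changed by -0.02 and -1.90. The snoRNAs of 2410002F23Rik behaved alike, with Snord88c at -0.71 and Snord88a at -0.66.

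Other genes of the snoRNA pathway were followed as lists. At 8 h in scramble cells 27.7% of all probe sets rose and 14.3% fell. With Mettl14 knockdown 23.7% rose and 12.7% fell, and with Mettl3 knockdown 23.8% and 12.5%. The lists were not tested against these shares, and their small counts do not set them apart. Of 7 genes for core proteins of the particles, 3 rose and 1 fell at 8 h in scramble cells (median 0.15): Nhp2 (0.37), Nop10 (0.33) and Gar1 (0.33), proteins of H/ACA particles, rose, and Nop56 (-0.37), a protein of C/D particles, fell. Of 12 genes for particle assembly, 5 rose and 5 fell (median 0.06), with Pih1d1 and Rpap3, partners of the Ruvbl ATPases, at 0.50 and 0.49, and Nufip1 and Znhit3, assembly factors of C/D particles, at -0.64 and -0.57. Of 17 genes for RNA trimming and decay in the nucleus, 6 rose and 5 fell (median 0.04). Those that fell include the lariat debranching enzyme Dbr1 (-1.54 ± 0.11) and the exosome subunit Exosc1 (-1.29 ± 0.06). With Mettl14 and Mettl3 knockdown the same lists counted 2 and 3 risen core genes, and 2 and 1 fallen.

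Noncoding host genes fell in most cases, whereas of all probe sets 14.3% fell and 27.7% rose at 8 h in scramble cells. Of 16 measured, 12 fell and 1 rose at 8 h in scramble cells, with a median change of -0.53, and the falls were led by Snhg14 (-1.43) and Snhg5 (-1.14). With Mettl14 knockdown 10 fell and 0 rose, and with Mettl3 knockdown 10 fell and 2 rose. Of all probe sets 12.7% and 12.5% fell and 23.7% and 23.8% rose in these knockdowns. Of the 5 measured Scarna genes, which guide modification of spliceosomal RNA in Cajal bodies, Scarna17 (0.89) and Scarna2 (0.53) rose and Scarna8 (-1.55) fell. Among 7 other RNAs without a poly(A) tail, 3 rose and none fell in scramble cells: Rny1 (0.85), Rpph1 (0.53), the RNA of ribonuclease P, and Rnu12 (0.51). Of 472 microRNA genes 155 fell and 37 rose, with a median of -0.12. The short RNAs outside the snoRNAs were thus called in both directions as well. The counts over 5 Scarna genes and 7 other RNAs do not set those lists apart from all probe sets.

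No single member passed the test for a time course that differs between treatments. The 8 h change in knockdown cells minus that in scramble cells passed the limma threshold for 0 of the 75 members with Mettl14 knockdown and 0 with Mettl3 knockdown, against 1.4% and 0.991% of all probe sets (1.04% and 0.714% higher, 0.361% and 0.276% lower). At an unadjusted p under 0.05, 7 and 11 members passed, and the matching share of all probe sets is not given here. The difference was above 0 for 57 members with Mettl14 knockdown (median 0.15) and 65 with Mettl3 knockdown (median 0.21), and the medians over all probe sets were -0.01 and -0.02. Both differences use the same scramble arrays, so the 2 medians are not independent.

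At 0 h of the time course, few members differed between knockdown and scramble. With Mettl14 knockdown, 1 member was higher and 3 lower, against 22.6% of all probe sets called (11.5% and 11.1%). With Mettl3 knockdown, 0 were higher and 6 lower, against 21.9% (11.4% and 10.5%). Both use the same scramble arrays. Snord16a had 11.02 and 10.89 in Mettl14 knockdown cells, 11.01 and 11.01 in Mettl3 knockdown cells, and 11.46 and 11.31 in scramble cells, in log2 signal. No knockdown array reached a scramble array, and the changes were -0.43 ± 0.09 and -0.38 ± 0.09 (limma adjusted p of 0.00328 and 0.00838). Snord19 was lower with Mettl14 knockdown (-0.92 ± 0.27) and Snord89 higher (0.33 ± 0.08), and Snora47 in Zbed3 was lower with Mettl3 knockdown (-0.41 ± 0.09). Centred on the long-lived genes, 0 members were higher and 10 lower with Mettl14 knockdown, and 0 higher and 8 lower with Mettl3 knockdown. Without replicate 2 of Mettl14 knockdown at 0 h the Mettl14 count was 1, without either scramble array at 0 h both counts were 2, and without replicate 1 of Mettl3 knockdown at 0 h the Mettl3 count was 2.

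On the YW-coded arrays, where each knockdown has its own scramble, more members were lower. With Mettl14 knockdown 17 members were lower and 2 higher, against 8.02% and 9.99% of all probe sets (18% called). With Mettl3 knockdown 19 were lower and 0 higher, against 8.24% and 8.67% (16.9% called). The median difference over members was -0.13 and -0.17, and over all probe sets -0.01 and 0.01. There were 12 members lower in both, which is 70.6% of the Mettl14 list and 63.2% of the Mettl3 list. They are 16% of the members, against 5.04% of all probe sets lower in both. Centred on the long-lived genes, 13 were lower with Mettl14 knockdown and 14 with Mettl3 knockdown, and none higher. Leaving out 1 array of the comparison took the Mettl14 count to 3 without either of its scramble arrays, 5 without knockdown replicate 1 and 4 without knockdown replicate 2. The Mettl3 count became 10 without knockdown replicate 1 and 9 without any other array of its comparison.

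Snord22 showed the largest of these differences, with 9.28 and 9.34 in Mettl3 knockdown cells and 10.10 and 10.11 in their scramble cells, a difference of -0.79 ± 0.05 (limma adjusted p = 0.00065). Its difference with Mettl14 knockdown was -0.26. It was not called at 0 h of the time course. Snord16a had 11.43 and 11.39 in Mettl14 knockdown cells, against 11.88 and 11.93 in their scramble cells, and 11.33 and 11.36 in Mettl3 knockdown cells, against 11.81 and 11.84 in theirs. Its differences of -0.49 and -0.48 had standard errors of 0.05. It was the only member lower in all 4 comparisons of knockdown with scramble at 0 h, which come from 3 separate sets of scramble arrays. Of all probe sets 3.19% were lower in all 4. Snord1b, in the noncoding gene Snhg16, was lower by -0.49 and -0.45, and Snora16a in Snhg12 by -0.29 and -0.57. Snord19 was lower with both knockdowns here (-0.58 and -0.47).

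On the deposited scale, more snoRNAs were higher than lower on the YW-coded arrays, set against the 0 h arrays of the time course. Of the 75 members, 23 were higher and 9 lower in Mettl14 knockdown cells, 17 higher and 10 lower in Mettl3 knockdown cells, and 27 higher and 13 lower in scramble cells (limma over all 26 arrays). Of all probe sets 48.9%, 43.5% and 50.4% were called in that order, with the balance the other way: 12.4% higher and 36.6% lower, 9.35% higher and 34.1% lower, and 12.4% higher and 38% lower in that order. The median difference was 0.09, 0.02 and 0.18 over members and -0.19, -0.17 and -0.16 over all probe sets. The 95th percentile of all probe sets was 10.97 to 11.01 on the YW-coded arrays and 11.20 to 11.24 on the 0 h arrays of the time course. The set and whatever differed in handling between the sets cannot be told apart. After normalizing all 26 arrays again to equal quantiles, the counts were 33 higher and 4 lower, 29 and 3, and 38 and 3. The shares of all probe sets above belong to the deposited scale, and those at this setting are not given here. Counts after this normalization therefore do not set snoRNAs apart from other probe sets. After centring on the long-lived genes they were 16 and 14, 15 and 12, and 16 and 16, and the median over members was -0.03 in both knockdowns. The scramble count fell to 26 called without either 0 h scramble array of the time course, and the Mettl3 count to 17 without replicate 1 of Mettl3 knockdown at 0 h.

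**Figure D5:**
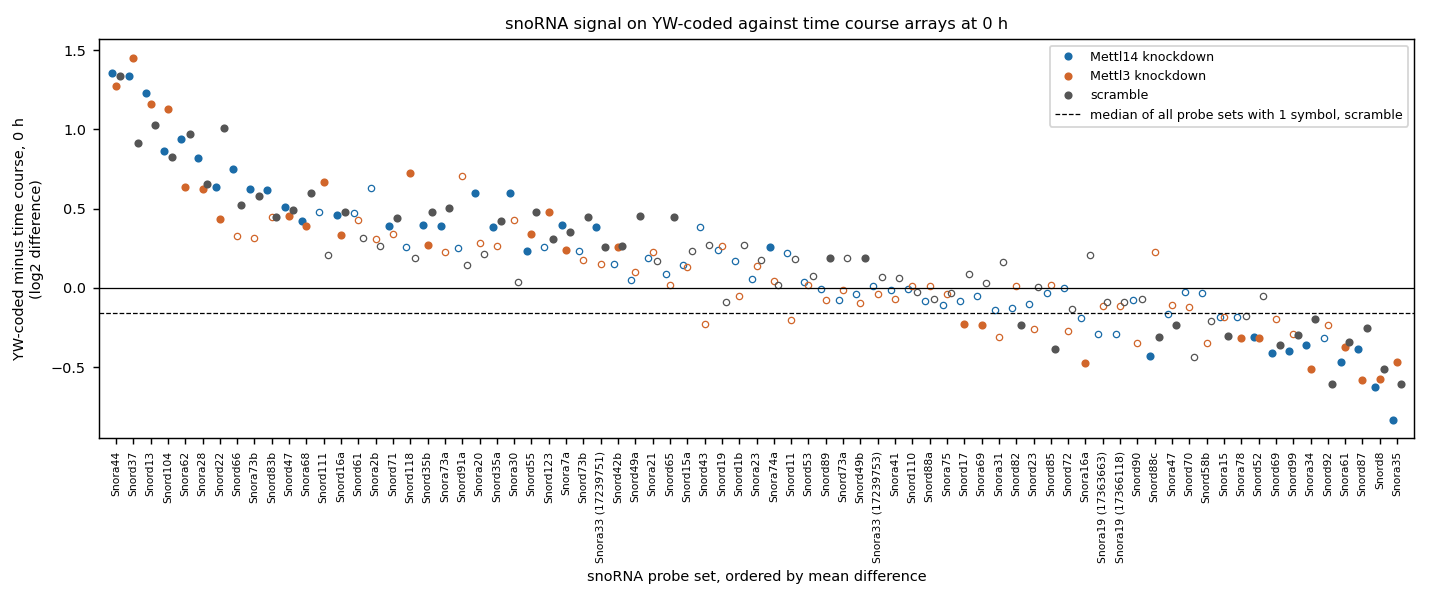
Log2 difference of each snoRNA probe set between the YW-coded arrays and the 0 h arrays of the time course in Mettl14 knockdown, Mettl3 knockdown and scramble cells, with filled points for those past the limma threshold. The dashed line marks the median of all probe sets with 1 symbol in scramble cells, at -0.16. Snora44, Snord37 and Snord13 lead at the left, and Snora35 and Snord8 are lowest at the right.

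Higher in all 3 comparisons of the sets were 13 members (17.3%, against 5.26% of all probe sets), and lower in all 3 were 5 (6.67%, against 22.3%). Snora44 had 10.32 and 10.28 on the YW-coded arrays against 8.92 and 8.97 on the time course arrays in Mettl14 knockdown cells. In Mettl3 knockdown cells it had 10.15 and 10.04 against 8.84 and 8.80, and in scramble cells 10.28, 10.30, 10.28 and 10.19 against 8.98 and 8.88. No YW-coded array came near a time course array, and the differences were 1.36, 1.27 and 1.34 (limma adjusted p of 6.48e-08, 2.18e-07 and 1.54e-08). Snora44 shares Snhg12 with Snora61 and Snord99. Snora61 was lower on the YW-coded arrays, by -0.47, -0.37 and -0.34, and Snord99 by -0.40 in Mettl14 knockdown cells. Snord13 was higher by 1.23, 1.16 and 1.03, Snord104 by 0.86, 1.13 and 0.83, and Snora62 by 0.94, 0.64 and 0.97. Snord37, in the elongation factor gene Eef2, was higher by 1.34, 1.45 and 0.91. Lower in all 3 were Snora34, Snora35, Snora61, Snord8 and Snord87. Snora35 in the serotonin receptor gene Htr2c was lower by -0.83, -0.47 and -0.61, and Snord8 in Chd8 by -0.62, -0.57 and -0.51.

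Some members that fell in the time course were not called between the sets. Snora41 was called in none of the 3 comparisons of the sets, with 8.84 and 8.56 on the YW-coded arrays against 8.67 and 8.77 on the 0 h time course arrays in Mettl14 knockdown cells. Snord19 and Snord43 were likewise not called. In contrast, Snord16a, which fell with time, was higher on the YW-coded arrays in all 3. Across members, the difference between the sets in scramble cells correlated at 0.88 with that in Mettl14 knockdown cells and at 0.78 with that in Mettl3 knockdown cells, from separate arrays.

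The 3 brightest members were also set against the others over the 26 arrays, after centring within each set. Snora33 (probe set 17239753) was most like Snord99 (Pearson r of 0.90), Snord89 (0.89) and Snord35a (0.89). Snord49b was most like its neighbour Snord49a in 2410006H16Rik (0.91), then Snord89 (0.83) and Snord99 (0.72). Snord82 was most like Snora15 (0.89), Snord47 (0.86) and Snord35b (0.80). All of these hold the change with time that their arrays share.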

How the data were processed

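The deposited log2 signals per probe set came from RMA; the submitters' processing notes name oligo for it, without a version. Whether the 26 arrays were processed together is not stated. Values ran from 0.754 to 14.32 over 41345 probe sets; 16010 are not in the probe table and 1814 have several symbols. Tests used R 4.3.3 and limma 3.58.1, with eBayes after lmFit, no trend and two-sided p-values, on all 23521 probe sets with 1 symbol, unfiltered, with Benjamini-Hochberg adjustment and a threshold of 0.05. The time course was fitted with 9 residual degrees of freedom, the YW-coded set with 4, and both together with 13 for comparisons between them. No sample was dropped, and the small number of arrays limits precision. A host is a RefSeq gene (GRCm38.p6 table) whose span holds the snoRNA; strand was not used and no coordinate is given, since the files name no build. Members named are the 12 brightest, the 6 dimmest, up to 6 rises and 6 falls per comparison and several well-known snoRNAs; others were named after their values were seen. Members and lists were chosen with earlier results of these data known. The fit was tested on simulated data.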

Additional observations from a re-analysis of the deposited data

How the results depend on the processing

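None of 144 named changes turned its sign under any alternative. They were picked as the largest past the threshold in each comparison, so their signs were unlikely to turn. Smaller changes named above, such as the 8 h rises of Snord53 and Snora44 in scramble cells, are not among them. Small medians over members did turn. The median at 8 h against 0 h, -0.07 with Mettl14 knockdown and -0.02 with Mettl3 knockdown, became 0.04 and 0.11 without the dim probe sets (the lowest 0.333333 of them by mean) and 0.01 and 0.10 after quantile normalization within each set. Between the sets, the medians of 0.09 and 0.02 became -0.03 and -0.03 with equal long-lived medians, which also turned the balance at 8 h with Mettl3 knockdown to 6 risen and 32 fallen, in place of 22 and 20. The total counts of members called at 4 h and 8 h against 0 h stayed within 1.5 times of those reported in all alternatives. Leaving out single arrays gave 30 to 39, 26 to 34 and 30 to 43 members called at 4 h, and 31 to 44, 34 to 43 and 31 to 46 at 8 h (Mettl14 knockdown, Mettl3 knockdown, scramble). Counts near the threshold moved; the cause was not tested. For 8 h against 4 h, leaving out single arrays gave 2 to 13, 2 to 13 and 2 to 6. Without the dim probe sets, the Mettl3 count was 18 and the scramble count 9. With trend and robust moderation the counts were 18, 24 and 11, with equal long-lived medians 3 and 5 in the knockdowns, and in 1 fit over all 26 arrays 20 with Mettl3 knockdown and 9 in scramble cells. For knockdown against scramble at 0 h of the time course, the Mettl14 count of 4 became 8 without the dim probe sets, 11 with trend, 7 after quantile normalization within each set, 10 with equal long-lived medians and 9 in the fit over all arrays, and 1 to 6 with single arrays left out; the Mettl3 count of 6 became 10 with trend and 2 to 7 with arrays left out. On the YW-coded arrays the counts of 19 became 32 and 37 with trend, 10 and 12 in the fit over all arrays, and 3 to 16 and 9 to 17 with arrays left out (Mettl14, Mettl3). The differences in 8 h change gave 1, 2, 2 and 2 called members with Mettl14 knockdown without the dim probe sets, with trend, with equal long-lived medians and in the fit over all arrays, 1 in each of these with Mettl3 knockdown, and 0 to 1 with arrays left out. Between the sets, arrays left out gave 23 to 35, 17 to 29 and 26 to 41. Quantile normalization over all 26 arrays was chosen after seeing the data. Replicate numbers paired the arrays weakly at most (correlations of deviations from -0.316 to 0.228 over 36 pairs of time course groups, 7 of them over 0.1). With the replicate block, 8 h against 4 h counted 6 members with Mettl14 knockdown and 2 in scramble cells. Under that block 14 named changes of 144 lost their call. Single changes in dim probe sets, such as Snord61, have the largest errors.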
